A study of Mus musculus with 2 samples.

Results

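Zbed6 and Zc3h11a are a nested gene pair on mouse chromosome 1: Zbed6 is a single exon that lies whole inside the first intron of Zc3h11a, on the same strand. They were taken by gene symbol from the annotation, which gave 3 gene identifiers of 55536 (1 for Zbed6 and 2 that both carry the symbol Zc3h11a) with 14 transcripts. The pair was selected on its estimated counts, chosen by the fact that Zbed6 had some in only 1 of the 2 libraries, so that difference is given below as a description and supports nothing.

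The libraries held RNA of the nucleoplasm, the soluble part of the nucleus, from macrophages grown out of C57BL/6J bone marrow. Both were made after ribosomal RNA depletion from cells given lipid A, the moiety through which lipopolysaccharide activates TLR4, at 100 ng/ml for 90 min. They were biological replicates 1 and 2 of the only group, made from 1 µg and 500 ng of RNA with a size range of 250 to 400. Age and sex were not collected, and the labels tie both replicates to 1 donor entry, which leaves it unknown how much of their spread is technical. There was no unstimulated or cytoplasmic library, and no p-value is given.

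ZBED6 is a DNA-binding repressor found in placental mammals. Its gene arose from a domesticated DNA transposon that landed in an intron of an older gene, and ZBED6 is best known for binding and repressing Igf2 in muscle. The host gene encodes ZC3H11A, a CCCH zinc finger protein of the nucleus that binds RNA and works with the TREX complex in mRNA export. ZBED6 protein is thought to be made from transcripts of the locus that keep the intron, while splicing that intron out gives the message for ZC3H11A. Whether an RNA keeps or loses the first intron therefore decides which coding region comes first in it.

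In the mm10 assembly with GENCODE M21, Zbed6 (ENSMUSG00000102049.1) occupied chr1:133655879-133660885 on the minus strand. Its exon of 5007 bases took up 85.8% of an intron of 5838 bases (chr1:133655399-133661236), with 351 intron bases before it and 480 after it. The coding region, 2940 bases or 980 codons, ran uninterrupted at chr1:133656658-133659597. Zc3h11a spanned chr1:133619862-133661380 as ENSMUSG00000102976.6, with 12 transcripts, and chr1:133619871-133661380 as ENSMUSG00000116275.1, with the single transcript Zc3h11a-213. Values of Zc3h11a below are sums over both identifiers unless one is named. A further gene at the locus bears on both members: Gm38394 (ENSMUSG00000094410.7, chr1:133619940-133661318) has 2 transcripts of 10156 bases with the same sequence. Their first exon of 5974 bases joins exon 1, the unspliced intron and exon 2 of Zc3h11a, and the rest follows the spliced exons of Zc3h11a. Gm38394 thus held all 5007 bases of the Zbed6 exon, and its annotated coding region was the same 2940 bases as that of Zbed6. One of its transcripts is annotated as protein-coding and the other as a target of nonsense-mediated decay.

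The sequences at the edges of the intron show what separates the RNAs of the locus. The first is the junction in spliced Zc3h11a-203, with exon 1 in lower case and exon 2 in capitals (chr1:133661237-133661248 joined to chr1:133655387-133655398). The next pair is the same exon ends when the intron is kept, with the first and last 2 intron bases in capitals (chr1:133661225-133661248 and chr1:133655387-133655410). The fourth is the start of the ZBED6 coding region inside the intron, with the start codon in capitals (chr1:133659538-133659597). All are on the minus strand of mm10 and read 5′ to 3′.
spliced: ttctgttctctgATTTGGGGATAT
retained, 5′ end: ttctgttctctgGTaactagaccc
retained, 3′ end: ttttcattttAGatttggggatat
ZBED6 coding start: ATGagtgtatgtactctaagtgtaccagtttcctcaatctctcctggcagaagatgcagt

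The spliced junction is held by full-length Zc3h11a-203 and by the short Zc3h11a-207 (Zc3h11a-213 joins exon 1 to the next exon instead). Both retained edges are held by Gm38394, and the coding start is held by Zbed6 and Gm38394 alike. The intron opens with GT and closes with AG, the usual letters of a spliced intron.

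**Figure D1:**
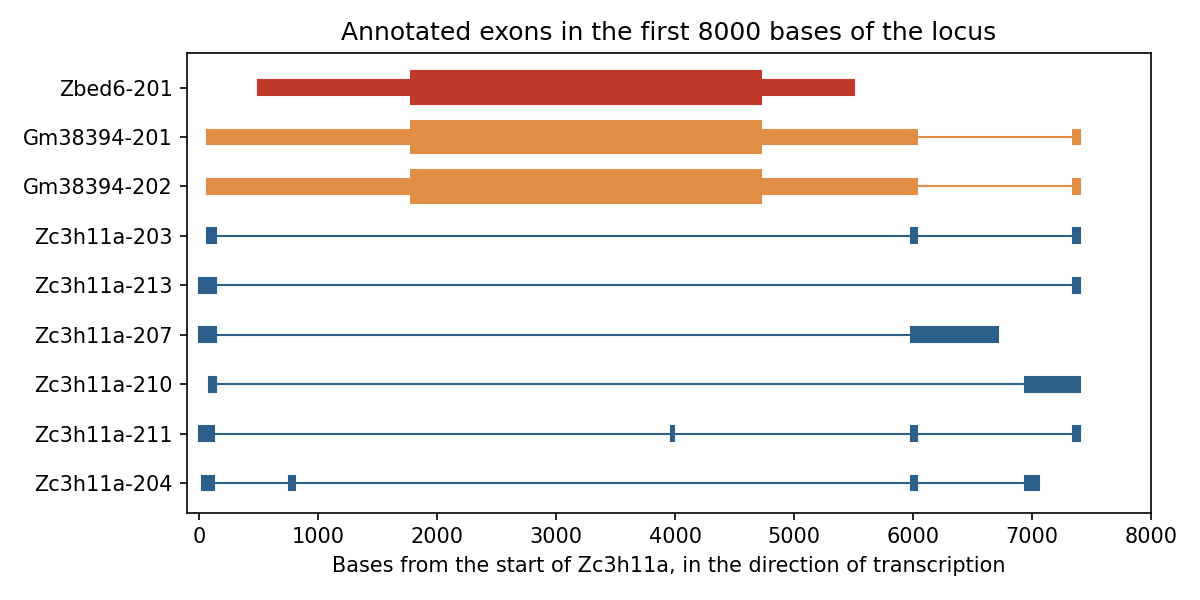
Exons (boxes) and introns (lines) of 9 transcripts over the first 8000 bases of the locus, against the distance in bases from the start of Zc3h11a. Tall boxes are the shared Zbed6 coding region (coding regions of Zc3h11a are not drawn tall); the exon of Zbed6 lies wholly within the first exon of both Gm38394 transcripts and within the intron of full-length Zc3h11a-203 and Zc3h11a-213.

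The annotation left Zbed6 no sequence of its own. Of the 4977 windows of 31 bases in the Zbed6 transcript, 0 were absent from every other annotated gene. Gm38394 had 887 of 10126 windows that no other gene held. Zc3h11a-213 had 0 of 4365, and 97.9% of its windows were also in Zc3h11a-203. Among 9083 genes at 100 or more estimated counts in either library and long enough for a window, the median gene had 99.6% of its windows to itself, and 54 genes (0.595%) had none. A read inside the Zbed6 exon could therefore be given to Zbed6 or to Gm38394 by the authors' estimation, and the split between these genes is uncertain.

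Values came from 2 quantifications that the authors made of the same libraries. The first gave 22669533 and 14939143 estimated counts in replicates 1 and 2, and the second gave 30881427 and 27674626. TPM is a level per transcript length, and its sum is the same in each library. Protein-coding genes took 22.4% and 39.3% of all TPM. For the 8572 of them that reached 1 TPM in both libraries, TPM was higher in replicate 2 by a median of 0.38 on the log2 scale. Differences between libraries below were therefore taken from estimated counts scaled by TMM, for which the median log2 ratio over 13515 genes was -0.0019. In bulk RNA such as this, fewer cells of a type and less RNA per cell cannot be told apart. All 8 macrophage markers examined (Csf1r, Adgre1, Cd68, Lyz2, Mpeg1, Itgam, Spi1 and Fcgr1) reached 1 TPM in both libraries, with summed TPM of 1865 and 2459, and all 4 lipid A response genes did too. All 4 T and NK cell markers were at 0, no marker of B cells, of stromal and endothelial cells or of erythroid cells reached 1 TPM in both libraries, and 1 of 4 neutrophil markers did.

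Zbed6 had 1963 estimated counts in replicate 1 and 0 in replicate 2. By the second quantification it had 1640 and 0. Replicate 1 was the high library and replicate 2 was at 0 in both quantifications. The level was 11.8 TPM in replicate 1 and 0 in replicate 2, a mean of 5.88 ± 8.32 (SD, n = 2). In replicate 1 this level stood at percentile 65.7 of the 8572 expressed protein-coding genes. A count of 0 allows up to 3 counts, so after scaling Zbed6 was at least 441-fold lower in replicate 2, and at least 535-fold lower in the second quantification. These bounds cover counting error only and take the assignment of reads as given.

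The authors' first quantification also carries its own uncertainty of the assignment. The deposited interval of the Zbed6 level ran from 9.60 to 13.3 TPM in replicate 1 and from 1.76e-05 to 1.75 TPM in replicate 2, so the intervals did not overlap. The deposited posterior mean count, an average over possible assignments, was 1973 with an SD of 156 in replicate 1 and 52.2 with an SD of 48.0 in replicate 2. By that measure Zbed6 was low in replicate 2, with a mean above 0 but an interval that reached almost down to 0. The lower bound of replicate 1 was 5.49 times the upper bound of replicate 2, far less than the folds bounded by the counts.

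A count of 0 in replicate 2 beside 100 or more in replicate 1 was rare: 4 of 9087 genes, or 0.044%, had it, and 2 genes (0.022%) had the reverse. In the second quantification Zbed6 was the only gene of 15255 (0.00656%) at 0 in replicate 2 and at 100 or more in replicate 1, and 6 (0.0393%) had the reverse, which makes 7 (0.0459%) in all. Since Zbed6 was picked for this pattern, the shares only place it. The genes most like it over the 2 libraries in the first quantification, by counts in replicate 1 among those at 0 in replicate 2, were B430305J03Rik (501 counts), Gm20412 (148), Gm45837 (109) and Gm26649 (94.4). B430305J03Rik, Gm20412 and Gm26649 were at 0 in both libraries in the second quantification, and Gm45837 had 220 and 243 counts there. Of the 5 genes with this pattern named here, Zbed6 alone had counts in replicate 1 and 0 in replicate 2 under both quantifications. The reverse pattern was led by Gm37376 (1004 counts in replicate 2), Gm44183 (224), Gm14288 (79.6), Rps6-ps4 (50.6) and Gm26690 (35.0). Gm26690 was at 0 in replicate 1 in the second quantification too, with 45.8 counts in replicate 2, and Rps6-ps4 was near 0 there, with 36.3. In the second quantification Gm37376 had 32443 and 51694 counts, Gm44183 had 1717 and 2061, and Gm14288 had 24.7 and 115. Of the 6 genes (0.066%) at 0 in 1 library and at 100 or more in the other, Zbed6 and Gm44183 had no window of their own, and Gm45837, a gene that runs across Arap1 and Pde2a, had 1.46% of its windows to itself. The other 3 had most of their windows to themselves: B430305J03Rik and Gm20412 100%, and Gm37376 74.2%. The lowest above 0 in replicate 2, among genes at 500 or more counts in replicate 1, were Snora73b and D630033A02Rik. The small nucleolar RNA Snora73b had 521 and 23.6 counts, and D630033A02Rik had 620 and 100 counts. Some genes between 100 and 500 counts in replicate 1 lay nearer to 0 in replicate 2.

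**Figure D2:**
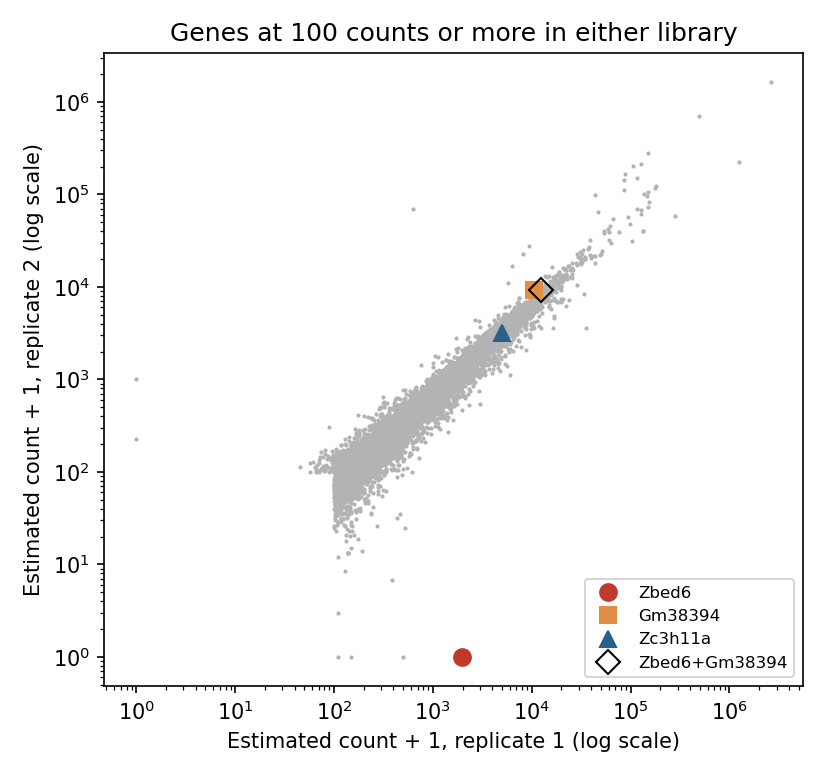
Estimated count + 1 of each gene at 100 or more in either library, replicate 2 against replicate 1, on log axes in the first quantification; each grey point is a gene. Zbed6 lies on the floor at 0 in replicate 2, while Zc3h11a, Gm38394 and the sum of Zbed6 and Gm38394 lie within the diagonal band of other genes.

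Gm38394, which holds the entire Zbed6 exon, was abundant in both libraries. It had 10561 and 9294 estimated counts in the first quantification and 13529 and 15047 in the second. Its level was 30.5 and 54.1 TPM in the first and 20.4 and 33.7 TPM in the second. Replicate 2, the library with no Zbed6 counts, was the higher one by TPM and by scaled counts in both quantifications. The log2 ratio of scaled counts, replicate 2 over replicate 1, was 0.38 (1.31-fold higher) in the first and 0.19 (1.14-fold) in the second. Both identical transcripts received equal estimated counts, 5280 each in replicate 1 and 4647 each in replicate 2.

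Taken as a sum, Zbed6 and Gm38394 count all RNA annotated with the whole Zbed6 exon, and with it the whole ZBED6 coding region. The sum was 12523 and 9294 estimated counts in the first quantification and 15170 and 15047 in the second. By TMM-scaled CPM, which are counts relative to a common library size, the sum was 564 and 621 in the first and 517 and 524 in the second. Replicate 2 was 1.10-fold higher in the first quantification (log2 ratio 0.14) and 1.01-fold higher in the second (0.02). In replicate 1 Zbed6 took 15.7% of this sum (Wilson 95% interval 15.05% to 16.3%) and in replicate 2 it took 0, which allows a share of up to 0.0323%. Both limits cover counting error only and take the assignment of reads between Zbed6 and Gm38394 as given. In the second quantification the shares were 10.8% and 0. The split of the sum between Zbed6 and Gm38394 differed widely between the libraries, while the sum itself differed little. The sum also takes in Gm38394 counts from outside the Zbed6 exon, and reads within that exon were not counted on their own. Why the split differed was not tested.

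**Figure D3:**
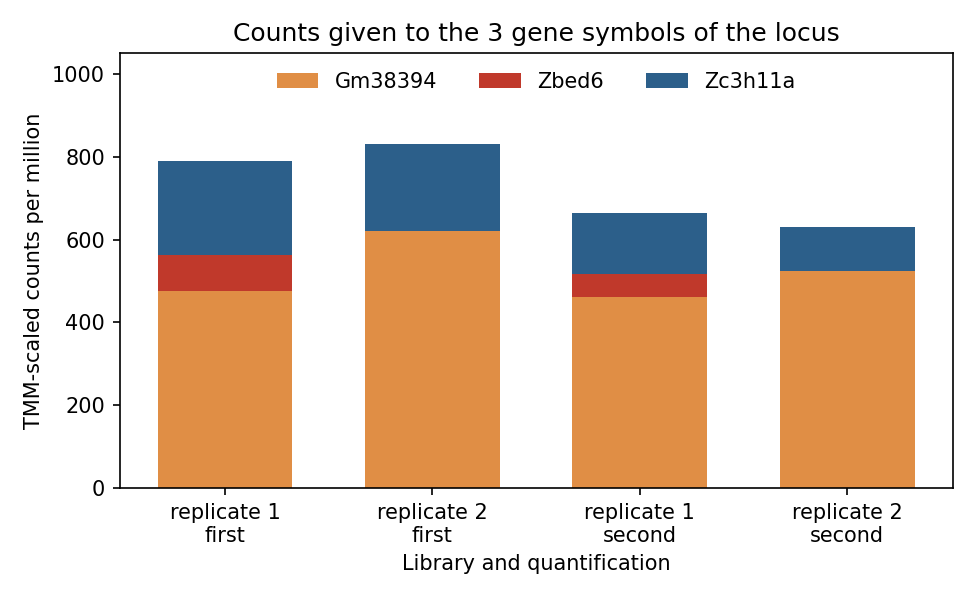
TMM-scaled CPM of Gm38394, Zbed6 and Zc3h11a, stacked, for each library (replicates 1 and 2) in the first and the second quantification; each bar is 1 library with no error bar. Zbed6 appears only in replicate 1, and the total of the 3 genes differed 1.05-fold between libraries in each quantification.

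Zc3h11a, the host gene, was present in both libraries. It had 4994 and 3147 estimated counts in the first quantification and 4312 and 3044 in the second. Its level was 91.2 and 125 TPM in replicates 1 and 2, a mean of 108 ± 24.1 (SD, n = 2), and 68.1 and 80.2 TPM in the second quantification. It stood at percentiles 96.2 and 96.7 of the same expressed protein-coding genes. That level sums all its transcripts, and the full-length spliced Zc3h11a-203 and Zc3h11a-213 gave 25.1 and 29.1 TPM of it. By scaled counts Zc3h11a was 1.07-fold lower in replicate 2 in the first quantification (log2 ratio -0.10) and 1.38-fold lower in the second (-0.47). The sign turned to 0.08 when TPM centred on the median gene was used. Neither ratio passed 2-fold, which 741 of 13515 genes (5.48%) did in the first quantification and 12.2% in the second. The first ratio was at percentile 40.8 of all genes scaled.

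The identifiers of Zc3h11a went opposite ways in the first quantification and the same way in the second. ENSMUSG00000102976.6 had 4395 and 2611 estimated counts, and ENSMUSG00000116275.1 had 599 and 536. The deposited TPM interval of the latter ran from 0.885 to 12.4 in replicate 1 and from 1.26 to 17.0 in replicate 2. Its levels were 4.11 and 7.43 TPM. The interval of the former ran from 76.8 to 92.1 and from 100.8 to 122, at levels of 87.1 and 118 TPM. In proportion to its level the interval of ENSMUSG00000116275.1 was the wider, though not in TPM. The log2 ratio of ENSMUSG00000102976.6 was -0.18 in the first quantification and -0.41 in the second. That of ENSMUSG00000116275.1 was 0.41 in the first and -0.99 in the second, so its direction depended on the quantification.

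With Zbed6 and Zc3h11a summed and Gm38394 left out, replicate 2 was 1.49-fold lower in the first quantification (log2 ratio -0.57) and 1.91-fold lower in the second (-0.93). Zbed6 took 28.2% of that sum (27.2% to 29.3%) in replicate 1 and 0, allowing up to 0.0953%, in replicate 2. With Gm38394 included, the locus had 17517 and 12441 estimated counts and a log2 ratio of 0.08, and in the second quantification 19482 and 18091 counts and -0.07. RNA annotated with the whole Zbed6 exon took 71.5% (70.8% to 72.2%) of the counts of the locus in replicate 1 and 74.7% (73.9% to 75.5%) in replicate 2. In the second quantification it took 77.9% and 83.2%. The intervals cover counting error only and take the assignment of reads between Gm38394 and Zc3h11a as given. That assignment is uncertain too, since only 38 of the 4366 windows of Zc3h11a-203 were held by no other gene. Transcripts with the whole Zbed6 exon are longer than the others, so the share of counts is not a share of molecules.

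Per length, RNA annotated with the whole Zbed6 exon also exceeded full-length spliced Zc3h11a. The transcripts with the whole Zbed6 exon summed to 42.2 TPM in replicate 1 and 54.1 in replicate 2. The full-length spliced transcripts Zc3h11a-203 and Zc3h11a-213, which carry the whole ZC3H11A coding region of 2376 bases, summed to 25.1 and 29.1 TPM. The ratio of the former to the latter was 1.69 and 1.86, and in the second quantification 3.07 and 5.37. Of these 2 classes, the RNA with the Zbed6 exon was the higher in both libraries and both quantifications. The size of its excess depended on the quantification. Whether reads in the first intron came from these annotated transcripts or from Zc3h11a RNA not yet spliced was not tested. RNA with the Zbed6 exon was not the larger part of the locus per length, with 31.7% and 30.2% of the TPM of the locus. In the second quantification it had 27.2% and 29.6%. In replicate 2 Zc3h11a-207 alone, which lacks the first intron but keeps part of the next, was higher, at 70.9 TPM. In the second quantification it was at 41.7 against 33.7 TPM. The full-length spliced class had 3648 and 2102 estimated counts, a log2 ratio of -0.23 after scaling, and -0.94 in the second quantification.

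Of single Zc3h11a transcripts, the highest by TPM in the first quantification was Zc3h11a-207, a short RNA annotated as a retained intron. It has 879 bases, and its second exon of 735 bases (chr1:133654664-133655398) covers exon 2 of 54 bases and runs 681 bases on into the next intron. It had 821 and 816 estimated counts and 35.9 and 70.9 TPM. Its deposited intervals, 32.5 to 37.3 and 62.0 to 71.1 TPM, did not overlap, and replicate 2 was the higher library. After scaling it was higher in replicate 2 by a log2 ratio of 0.56, and by 0.38 in the second quantification. It had 709 of 849 windows that no other gene held, so most of its annotated sequence was in no other gene. Whether reads in the 681 intron bases came from this transcript or from other RNA that keeps that intron was not tested.

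Zc3h11a-210, a protein-coding model of 786 bases with a coding part of 120 bases, went the other way. It had 449 and 194 estimated counts and 22.9 and 19.5 TPM, lower in replicate 2 by a log2 ratio of -0.64 after scaling and by -0.77 in the second quantification. Of its 756 windows, 433 were held by no other gene and 344 by no other transcript. The full-length Zc3h11a-203 had 3049 and 1566 estimated counts and 20.9 and 21.7 TPM, and Zc3h11a-213 had 4.11 and 7.43 TPM. In the second quantification Zc3h11a-203 was at 6.47 and 4.94 TPM. Its deposited intervals, 11.7 to 24.1 and 9.93 to 26.6 TPM, overlapped between libraries. It had 38 of 4366 windows that no other gene held.

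The other 9 Zc3h11a transcripts summed to 7.36 and 5.68 TPM. Among them Zc3h11a-201 was highest, at 4.45 and 3.0 TPM, followed by Zc3h11a-205 at 1.09 and 1.32 and Zc3h11a-202 at 1.01 and 0.92. Zc3h11a-204, Zc3h11a-208, Zc3h11a-211 and Zc3h11a-212 were under 0.5 TPM in both libraries, although Zc3h11a-212 was at 0.695 and 0.646 TPM in the second quantification. Zc3h11a-206 and Zc3h11a-209 were at 0 in both libraries in the first quantification, whereas in the second Zc3h11a-206 was at 5.60 and 5.63 TPM and Zc3h11a-209 at 0.94 and 0.83.

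**Figure D4:**
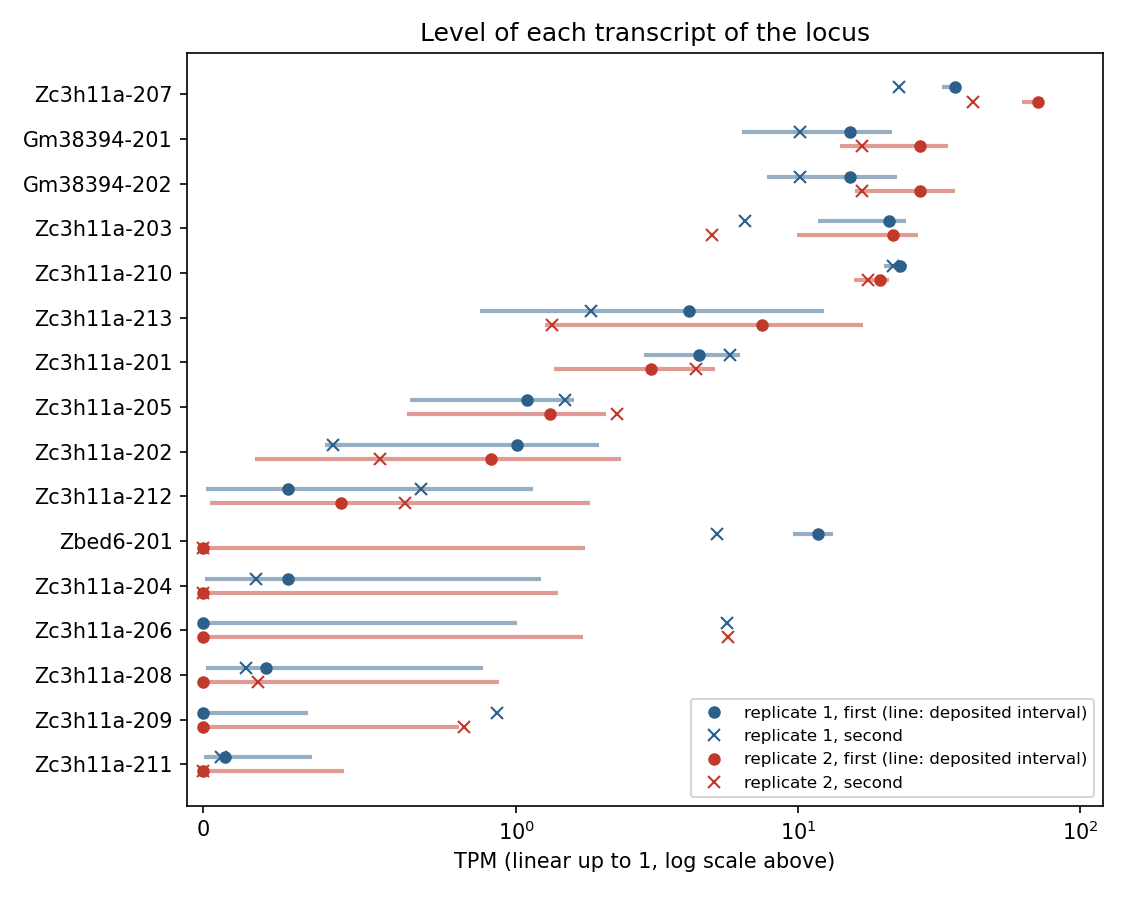
Level of each of the 16 transcripts of the locus in TPM, linear up to 1 and on a log scale above, in replicate 1 (blue) and replicate 2 (red); filled points are the first quantification with the deposited interval as a line, and crosses are the second. The Zbed6 transcript is at 11.8 TPM in replicate 1 and at 0 in replicate 2, while both Gm38394 transcripts are above 10 TPM in every case.

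Only 2 Zc3h11a transcripts place an exon inside the Zbed6 exon. Zc3h11a-204 has an exon of 46 bases there (chr1:133660576-133660621), and Zc3h11a-211 has an exon of 28 bases within the ZBED6 coding region (chr1:133657389-133657416, minus strand), shown here whole because it is the one stretch of ZBED6 coding sequence that a spliced Zc3h11a transcript carries.
Zc3h11a-211 exon 2: agactcagagaagattttcaagtcagag

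Together these transcripts had 2.89 of the 4994 Zc3h11a counts in replicate 1 (0.0579%) and 0 in replicate 2, which allows up to 0.0953%. In the second quantification they had 0.0935% and 0. Zc3h11a counts therefore held almost nothing from within the Zbed6 exon, and reads there went to Zbed6 and Gm38394.

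Zbed6 was also set beside other genes of its kind. The annotation held 81 protein-coding genes with a single exon that lie within another protein-coding gene on the same strand, of which 12 had 100 or more estimated counts in either library. The 1 of these 12 (8.33%) at 0 in 1 library, and the 1 of 19 (5.26%) in the second quantification, was Zbed6 itself, which was picked for this, so the shares say nothing of nested genes. Over all genes they were 0.066% and 0.0459%. The next highest were Eid3 inside Txnrd1 (1112 and 634 counts), Cenpb inside Spef1 (961 and 568), Chmp1b inside Gnal (670 and 282) and Hist3h2a inside Trim17 (634 and 174). Besides Zbed6, 1 of the 12 had no window of its own, Yy2 inside Mbtps2, a retroposed relative of the factor gene Yy1, named after its values were seen. Yy2 had 114 and 77.5 counts, present in both libraries.

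ZBED6 belongs to a wider group of proteins that descend from transposases. Of 16 such genes, 5 reached 1 TPM in both libraries, as did 38.9% of all 22028 protein-coding genes, and the median level was 0.38 ± 0.127 TPM (SD, n = 2) against 0.235 for all protein-coding genes. The highest were Gtf2ird2 at 12.1 and 13.0 TPM, Cenpb, which binds centromere DNA, at 5.91 and 7.04 TPM, and Zbed6 itself by its mean. Its relative Zbed4, named after its values were seen, was at 4.53 and 7.01 TPM. Under 1 TPM in both libraries were Harbi1, Tigd3, Tigd5, Jrk, Pgbd5, Zbed5, Pgbd1, Tigd4 and Rag1, the last being the recombinase of antigen receptor genes and listed at 0. Zbed6 in replicate 1 was at 11.8 TPM, near Gtf2ird2. Of the 10 members of the list that could be scaled in both libraries 0 passed 2-fold either way, where 5.48% of all genes did, so a count of 0 in this or the following lists does not set them apart. Zbed6 itself, with no counts in replicate 2, was not among these 10.

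Zc3h11a ranked second of 17 CCCH zinc finger genes by mean TPM. Above it stood Zc3h7a, at 436 and 690 TPM, and below it Zc3hav1, which encodes the antiviral protein ZAP, at 63.1 and 66.5 TPM. This rank uses the sum of all Zc3h11a transcripts. The full-length Zc3h11a-203 and Zc3h11a-213 together gave 25.1 and 29.1 TPM, below Zc3hav1 as a whole. The median of the 17 genes was 10.6 ± 2.93 TPM, and 14 of them reached 1 TPM in both libraries, where 38.9% of protein-coding genes did. Zc3h8, Zc3h6 and Zc3h12b were under 1 TPM in both. Of the 16 that could be scaled, 0 passed 2-fold between libraries (5.48% of all genes).

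Among 18 genes of TREX and mRNA export, Zc3h11a again ranked second by mean TPM. Nxf1, which encodes the main export receptor of mRNA, was at 174 and 221 TPM, and Ddx39b, the helicase of TREX, at 77.9 and 90.4 TPM. The full-length Zc3h11a transcripts alone, at 25.1 and 29.1 TPM, were below Ddx39b, so the rank rests on the sum over all transcripts. The median of the list was 6.47 ± 0.651 TPM, 17 of 18 genes reached 1 TPM in both libraries (38.9% of protein-coding genes), and 0 of 18 passed 2-fold (5.48% of all genes).

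Genes of the insulin-like growth factor axis were given because Igf2 is the known target of ZBED6. Igf2 itself had 5 and 13 estimated counts, or 0.04 and 0.29 TPM, and the neighbouring imprinted RNA H19 had 1 and 0 counts. Igf2bp1 and Irs1 were also under 1 TPM in both libraries. The second quantification gave higher levels for some of these low genes, with Igf2 at 0.326 and 4.19 TPM and Igf2bp1 at 3.77 and 5.65 TPM. The highest of the 12 were Igf1, a growth factor gene that macrophages are known to use, at 27.9 and 42.7 TPM, the clearance receptor Igf2r at 22.9 and 33.7 TPM, and the RNA-binding Igf2bp2 at 13.9 and 17.0 TPM. The median of the list was 6.32 ± 1.79 TPM, 8 of 12 genes reached 1 TPM in both libraries (38.9% of protein-coding genes), and 0 of the 8 scaled genes passed 2-fold (5.48% of all genes).

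The nearest protein-coding genes on either side were at lower levels than Zc3h11a. On the downstream side of Zc3h11a, Snrpe, which encodes a core protein of spliceosomal particles, was at 7.38 and 10.6 TPM, Sox13 at 0.06 and 0.34 and Etnk2 at 0.19 and 0.36. On the upstream side Lax1 and Optc were at 0 in both libraries and the calcium pump gene Atp2b4 was at 2.86 and 14.4 TPM. Counts sufficed for a scaled ratio in 3 of these 6 neighbours (Snrpe, Etnk2 and Atp2b4), and Atp2b4 was the 1 of these 3 beyond 2-fold, higher in replicate 2 by a log2 ratio of 1.11, where 2.12% of all genes were.

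The shared start of the locus held a match to the known ZBED6 motif. The motif GCTCGC was searched on both strands (as GCGAGC on the other) in RefSeq windows of 300 bases around gene starts, 250 before to 50 after, in build GRCm38.p6. The Zc3h11a window (chr1:133661350-133661649) held 1 match, at its start site, and the window of Zbed6 (chr1:133660836-133661135) held 0. Of 32851 such windows, 14.1% held the motif on either strand, so a match is common. The 30 bases around it, on the minus strand (chr1:133661384-133661413) with the match in capitals, are shown because RNAs of Zc3h11a and Gm38394 begin near them.
Zc3h11a start: ccagccttaaagGCGAGCctgtagccgggc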

How the data were processed

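Ribosomal-RNA-depleted total RNA of macrophage nucleoplasm was sequenced in 2 libraries of 1 group. Per the file headers and the labels, the authors deposited a gene and a transcript table from a first quantification, on a transcriptome alignment to mm10 with GENCODE M21, and a second transcript table made from 10 read files per library. Which tools made them is not given in the sources used here. Estimated counts (expected counts), as deposited, are unnormalized and can be fractional. The deposited TPM values are levels per length that sum to the same total per library. The deposited FPKM values are scaled to length and library size and served as an alternative. The deposited bounds of TPM (signal) are the authors' intervals of the assignment. Isoform percent (deposited percent values) was not used.

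Zc3h11a values are sums over 2 gene identifiers. Estimated counts were rounded for the filter (filterByExpr) and scaled by TMM in edgeR 4.0.16. Log2 ratios used a prior count of 2, and a count of 0 was bounded at 3 counts. The scaling was tested on simulated data. Windows of 31 bases were compared on the transcript strand over all GENCODE M21 transcripts. Python 3.11.15, numpy 2.4.6, pandas 2.3.3, scipy 1.17.1, matplotlib 3.10.9, R 4.3.3 and DESeq2 1.42.0 were used. Shares have Wilson 95% intervals, which like the floors cover counting error only, as no molecular identifiers are named. The named genes were the members and their transcripts, the 3 highest genes of each list and every one under 1 TPM in both libraries, the 3 nearest protein-coding genes on each side, the 5 genes with the most counts at 0 in the other library, each way, and the 5 highest nested single-exon genes. Zbed4, Yy2 and the 2 genes just outside the pattern of Zbed6 were named outside this rule. The members and lists were chosen with earlier results of these data known. With 1 group, no test was made. No protein sequence is printed. Alternatives were other scalings, the second quantification, FPKM, TPM rescaled to protein-coding genes, other prior counts, other count minimums, no filter, each library alone and, chosen after seeing the data, sums with Gm38394, posterior means and 1 Zc3h11a identifier alone.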

Additional observations from a re-analysis of the deposited data

How the results depend on the processing

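Of 52 values under alternatives that used both libraries, 27 stayed within a fixed range of the reported value: 1 SD between libraries for levels and shares, the 95% counting error for log2 differences, and 1.5 times for counts of genes. The other 25 moved beyond it. The sign turned in 3 of them: the differences of Zbed6 and of Zbed6 plus Zc3h11a with Gm38394 added, and that of Zc3h11a by centred TPM. For the Zbed6 level, the Zbed6 share and the share with Zbed6 exon bases, the SD was larger than the mean. No lower value of these could leave its range. Adding Gm38394, chosen after seeing the data, turned the Zbed6 log2 difference from a bound of -8.78 to 0.14, raised its mean level from 5.88 to 48.2 TPM, and moved the difference of Zbed6 plus Zc3h11a from -0.57 to 0.0757. The mean share was 14.1% for Zbed6 of Zbed6 plus Zc3h11a, and 73.1% for Zbed6 plus Gm38394 of all 3 genes. The second quantification gave a Zc3h11a level of 74.1 TPM, log2 differences of -0.47 for Zc3h11a and -0.93 for the sum, 2718 genes beyond 2-fold in place of 741, and list medians of 0.682 (transposase-derived) and 10.4 TPM (TREX and export). TPM centred on the median gene gave differences of 0.0815 for Zc3h11a and -0.0934 for the sum. Rescaling TPM to protein-coding genes gave levels of 26.3 for Zbed6 and 363 for Zc3h11a. By FPKM, Zc3h11a was at 143 and the list medians were 0.53, 13.9 (CCCH), 8.63 (TREX and export) and 8.28 (IGF axis). The first Zc3h11a identifier alone differed by -0.18. By TPM, 0.186% of Zc3h11a lay in transcripts with exon bases of Zbed6, against 0.0289% by counts. Minimums of 50 and 500 counts gave 10 and 3 genes at 0 in 1 library in place of 6, and protein-coding genes alone gave 3. Without a filter 2919 genes passed 2-fold. Leaving out either library left 11.8 or 0 TPM for Zbed6 and 91.2 or 125 TPM for Zc3h11a; with 2 libraries such a value cannot leave the SD, so the 16 values of this kind say nothing of stability. Other prior counts were not run for Zbed6, whose bound uses none. No paired analysis was possible because there is only 1 group. Depth was 1.52-fold higher in replicate 1 in the first quantification. No window of 31 bases is held by Zbed6 and not by Gm38394. Whether depth bears on how counts were split between these genes was not tested.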
